A study of Homo sapiens and Mus musculus with 10 samples.

Results

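The cytosolic ribosomal protein genes were examined in ATAC-seq peak lists of 4 human cell lines and 1 mouse line. Members were taken by name from GENCODE release 44: protein-coding symbols beginning RPL or RPS and a digit, with RPSA, RPLP0, RPLP1 and RPLP2, and without the RPS6K kinases and symbols ending in L or L1. The naming rule found 83 of 20046 human protein-coding genes. Of these, 2 lie on chromosome Y and were not analysed, and 3 are readthrough loci (RPL17-C18orf32, RPL36A-HNRNPH2 and RPS10-NUDT3) that share start sites with a member. RPS19BP1 meets the naming rule but is not a ribosomal protein gene. The remaining 77 genes, 46 of the large subunit and 31 of the small subunit, lie on 21 chromosomes, with 12 on chromosome 19 and 4 on X. A mouse gene of the same name was found for 76 of them. RPS3A has none.

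Ribosomes carry a single copy of nearly all of these proteins, and growing cells make them in matched amounts from single-copy genes scattered over the genome. Their promoters are compact, rich in CpG and active in almost all cells, and transcription usually begins at a C within a run of pyrimidines. The same run, at the 5′ end of the mRNA, is the 5′ terminal oligopyrimidine (TOP) motif through which translation of these mRNAs follows nutrient signals.

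ATAC-seq reports accessible DNA as the places where the Tn5 transposase can insert adapters. GM12878 is an Epstein-Barr virus-transformed B-lymphoblastoid line, HEK293T an embryonic kidney line carrying adenoviral genes and SV40 large T antigen, HFF1 a line of fibroblasts from foreskin, and K562 a chronic myeloid leukaemia line with erythroid features. The mESC samples are feeder-free mouse embryonic stem cells grown with leukaemia inhibitory factor. The labels name no treatment, and each line has 2 replicates, which the labels do not describe as separate cultures. P-values below therefore measure only the spread between these samples, which may be technical.

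The lists held 52170 to 127560 peaks in human and 138452 and 142297 in mouse. Read numbers are not in the lists, so depth was read from the background under each peak, which the fold and p-value of a peak fix together. That background, in reads per window at the summit, was 0.465 and 0.466 in HEK293T and between 1.71 and 2.43 in the other 6 human libraries. HEK293T is thus the shallowest line, and its peaks were fewer and narrower over all genes. All 5 chosen marker genes of the line had promoter peaks in both replicates of GM12878, HEK293T, HFF1 and mESC. In K562, 3 of 5 did, and KLF1 and HBG1 had none. Between 1 and 3 of the 5 markers of a human line also had peaks in each other human line. Peak names share 1 prefix in the GM12878 and mESC lists, while in the other 3 lines replicates 1 and 2 each have another. The labels do not say what the prefixes mean, and for GM12878 line and prefix cannot be told apart.

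To show what the peaks cover, promoter sequence is given for 9 genes on which the results turn: the 2 genes without a peak in HEK293T (RPL19 and RPL41), 3 whose peaks were among the most reduced there (RPL32, RPL35A and RPS18), and 4 genes fixed for their role (RPS19, RPL11 and RPS24, mutated in Diamond-Blackfan anaemia, and RPLP0, a common reference gene). Each stretch is 80 bases of the RefSeq promoter table on GRCh38.p14, read 5′ to 3′ on the gene's strand, with 60 bases before the RefSeq start and 20 from it. Capitals mark the pyrimidine run that spans a start at C and any match to the motifs described below.
RPL19 (chr17:39200223-39200302, plus strand): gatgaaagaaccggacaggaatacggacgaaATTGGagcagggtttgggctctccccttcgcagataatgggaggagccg
RPL41 (chr12:56116573-56116652, plus strand): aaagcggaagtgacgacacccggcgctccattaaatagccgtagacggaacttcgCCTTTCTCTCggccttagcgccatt
RPL32 (chr3:12841546-12841625, minus strand): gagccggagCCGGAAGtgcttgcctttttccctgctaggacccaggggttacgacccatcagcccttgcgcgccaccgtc
RPL35A (chr3:197950130-197950209, plus strand): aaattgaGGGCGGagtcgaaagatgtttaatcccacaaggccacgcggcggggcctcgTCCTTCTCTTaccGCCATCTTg
RPS18 (chr6:33272015-33272094, plus strand): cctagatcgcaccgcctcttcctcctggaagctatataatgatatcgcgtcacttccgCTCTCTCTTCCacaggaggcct
RPS19 (chr19:41860195-41860274, plus strand): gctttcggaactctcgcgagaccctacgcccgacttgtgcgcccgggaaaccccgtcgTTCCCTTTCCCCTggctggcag
RPL11 (chr1:23691746-23691825, plus strand): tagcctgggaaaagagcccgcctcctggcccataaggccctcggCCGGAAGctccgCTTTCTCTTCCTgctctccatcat
RPS24 (chr10:78033803-78033882, plus strand): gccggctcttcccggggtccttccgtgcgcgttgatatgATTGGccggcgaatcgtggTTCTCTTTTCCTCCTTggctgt
RPLP0 (chr12:120201092-120201171, minus strand): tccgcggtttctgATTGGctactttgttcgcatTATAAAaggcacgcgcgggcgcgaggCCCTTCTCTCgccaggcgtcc

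7 of these starts are a C inside a pyrimidine run of 10 to 16 bases, while the RefSeq starts of RPL19 and RPL32 are not a C. RPLP0 is the one shown with a TATA match, and RPL32 and RPL11 carry the ETS match. Over the table, 62 of the 77 members had an entry and 15 did not. A C followed by 4 pyrimidines stood exactly at the start in 46 of 62 members, or 74.2% (95% exact binomial interval 61.5% to 84.5%), and in 4.71% of 15274 protein-coding promoters of the same length. Allowing the run to begin within 5 bases of the start gave 53 of 62 members, or 85.5%, and 22.2% of all promoters.

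Motifs were searched on both strands of the 300 bases from 250 before to 50 after the start. The ETS match (CCGGAAG), the site type of GABPA, was in 21 of 62 member promoters, or 33.9% (exact interval 22.3% to 47.0%), beside 14.7% of all promoters. The YY1 match (AAGATGGC) was in 6, or 9.68% (3.63% to 19.9%), beside 4.16%, and none of the 6 lay within the 100 bases before the start. The GC-box of SP and KLF factors (GGGCGG) was in 56.5% beside 61.8%, and the NFY box (CCAAT) in 32.3% beside 36.5%. TATAAA was in 8.06% beside 9.43%, the E-box CACGTG in 4.84% beside 8.86%, and the NRF1 match in 1.61% beside 1.78%. The intervals of these last 5 and of YY1 contained the share of all promoters. Median GC content was 59.7% in members and 63.7% in all promoters, and the ratio of observed to expected CpG was 0.918 and 0.783. A match is a string of letters and not a bound site.

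**Figure D1:**
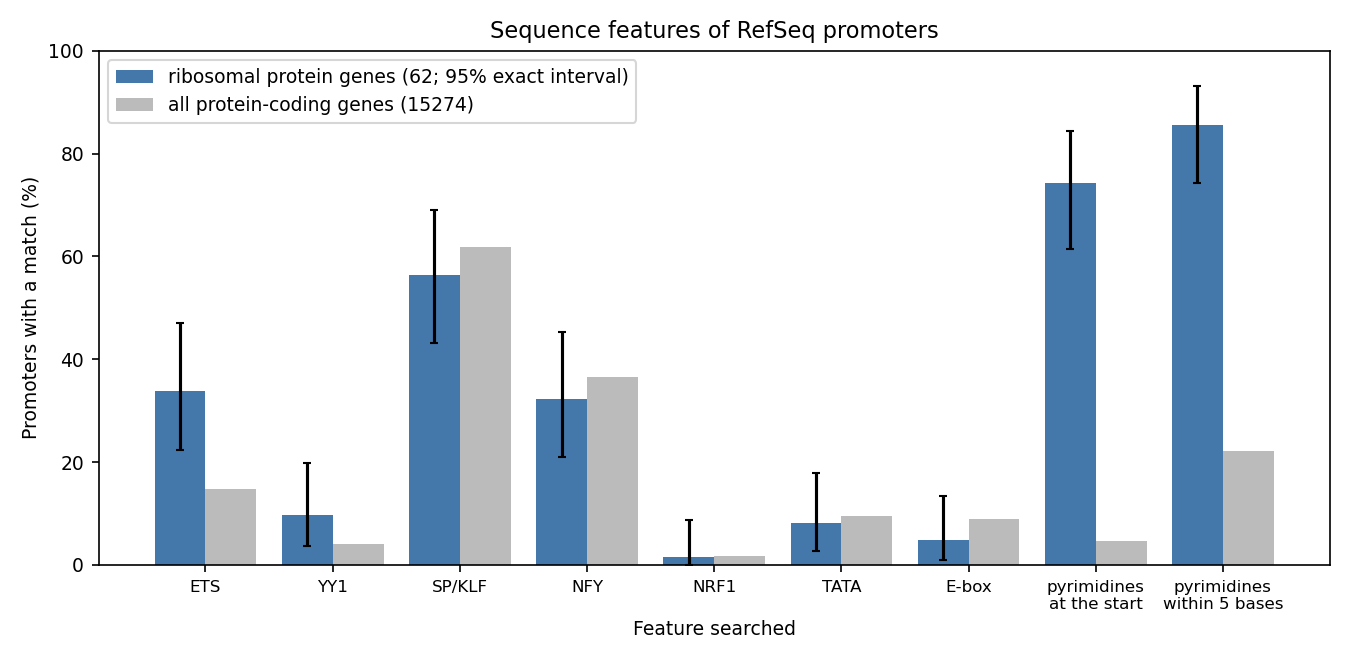
Share of promoters (%) holding each sequence feature in 62 ribosomal protein genes (blue, with 95% exact binomial intervals) and in 15274 protein-coding genes (grey). The pyrimidine start stands at 74.2% against 4.71%, and the ETS match at 33.9% against 14.7%, while the bars of the other motifs lie close together.

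Nearly every ribosomal protein gene had an accessible promoter in every line. A promoter peak, meaning any overlap of a deposited peak with a window reaching 1 kb to both sides of a GENCODE start site, was present in all 8 human libraries for 75 of 77 members. The share of all protein-coding genes on the autosomes and X was 59.7%. In each HEK293T library taken alone 75 of 77 members had a peak, beside 69.8% and 69.5% of all genes, and in each other library all 77 did, beside 71.5% to 77.9%. In mESC, 76 of 76 members had one in both libraries, beside 73.1% of all mouse genes. All 31 small-subunit genes were among the 75.

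RPL19 and RPL41 were the exceptions, and both lacked the peak in HEK293T alone. RPL19 encodes a large-subunit protein that forms part of a bridge between the subunits, and RPL41 encodes the shortest of the ribosomal proteins. At RPL19 the strongest promoter peak in GM12878 replicate 1 was chr17:39200213-39200594 on hg38, which spans the annotated start at 39200283. Its widths were 382 and 474 bp in GM12878, 398 and 481 bp in HFF1 and 436 and 441 bp in K562. These 6 libraries also had a separate peak just upstream, with summits 246 to 277 bp before the start, and HEK293T had neither peak. The nearest HEK293T peaks lay 2475 and 2507 bp from the RPL19 start.

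At RPL41 the start at chr12:56116633 lay within peaks of 687 and 701 bp in GM12878, 486 and 585 bp in HFF1 and 672 and 668 bp in K562. HEK293T had no peak there, but it kept the neighbouring peak that begins 1252 bp downstream of the start, with widths of 709 and 635 bp. The same neighbour was present in all 8 libraries. RPL41 summit pileups, the number of reads stacked at the summit, were 120 and 124 in GM12878, 86 and 77 in HFF1 and 105 and 86 in K562. RPL19 pileups were lower, from 53 to 86 in the 6 libraries, and RPL19 ranked lowest of all 77 members within libraries, at a median percentile of 22.9.

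The pattern of a peak in the other 6 libraries and none in HEK293T was seen in 416 of all genes, or 2.08%. Because HEK293T was shallowest, the other libraries were thinned to its background level, an alternative chosen after the data were seen. Thinning was a single random draw per library from the summit reads of peaks already called. A peak was kept if it reached the smallest −log10 p of the HEK293T lists, and peaks were not called again from reads. RPL19 and RPL41 kept their peaks in all 6 thinned libraries, as did 168 of all genes (0.841%) with none in HEK293T. After thinning, 73 of 77 members had a peak in all 8 libraries, beside 53.7% of all genes, and RPL26 and RPLP2 dropped out in K562 replicate 2. Presence or absence in 2 libraries against 6 was not tested for a single gene.

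**Figure D2:**
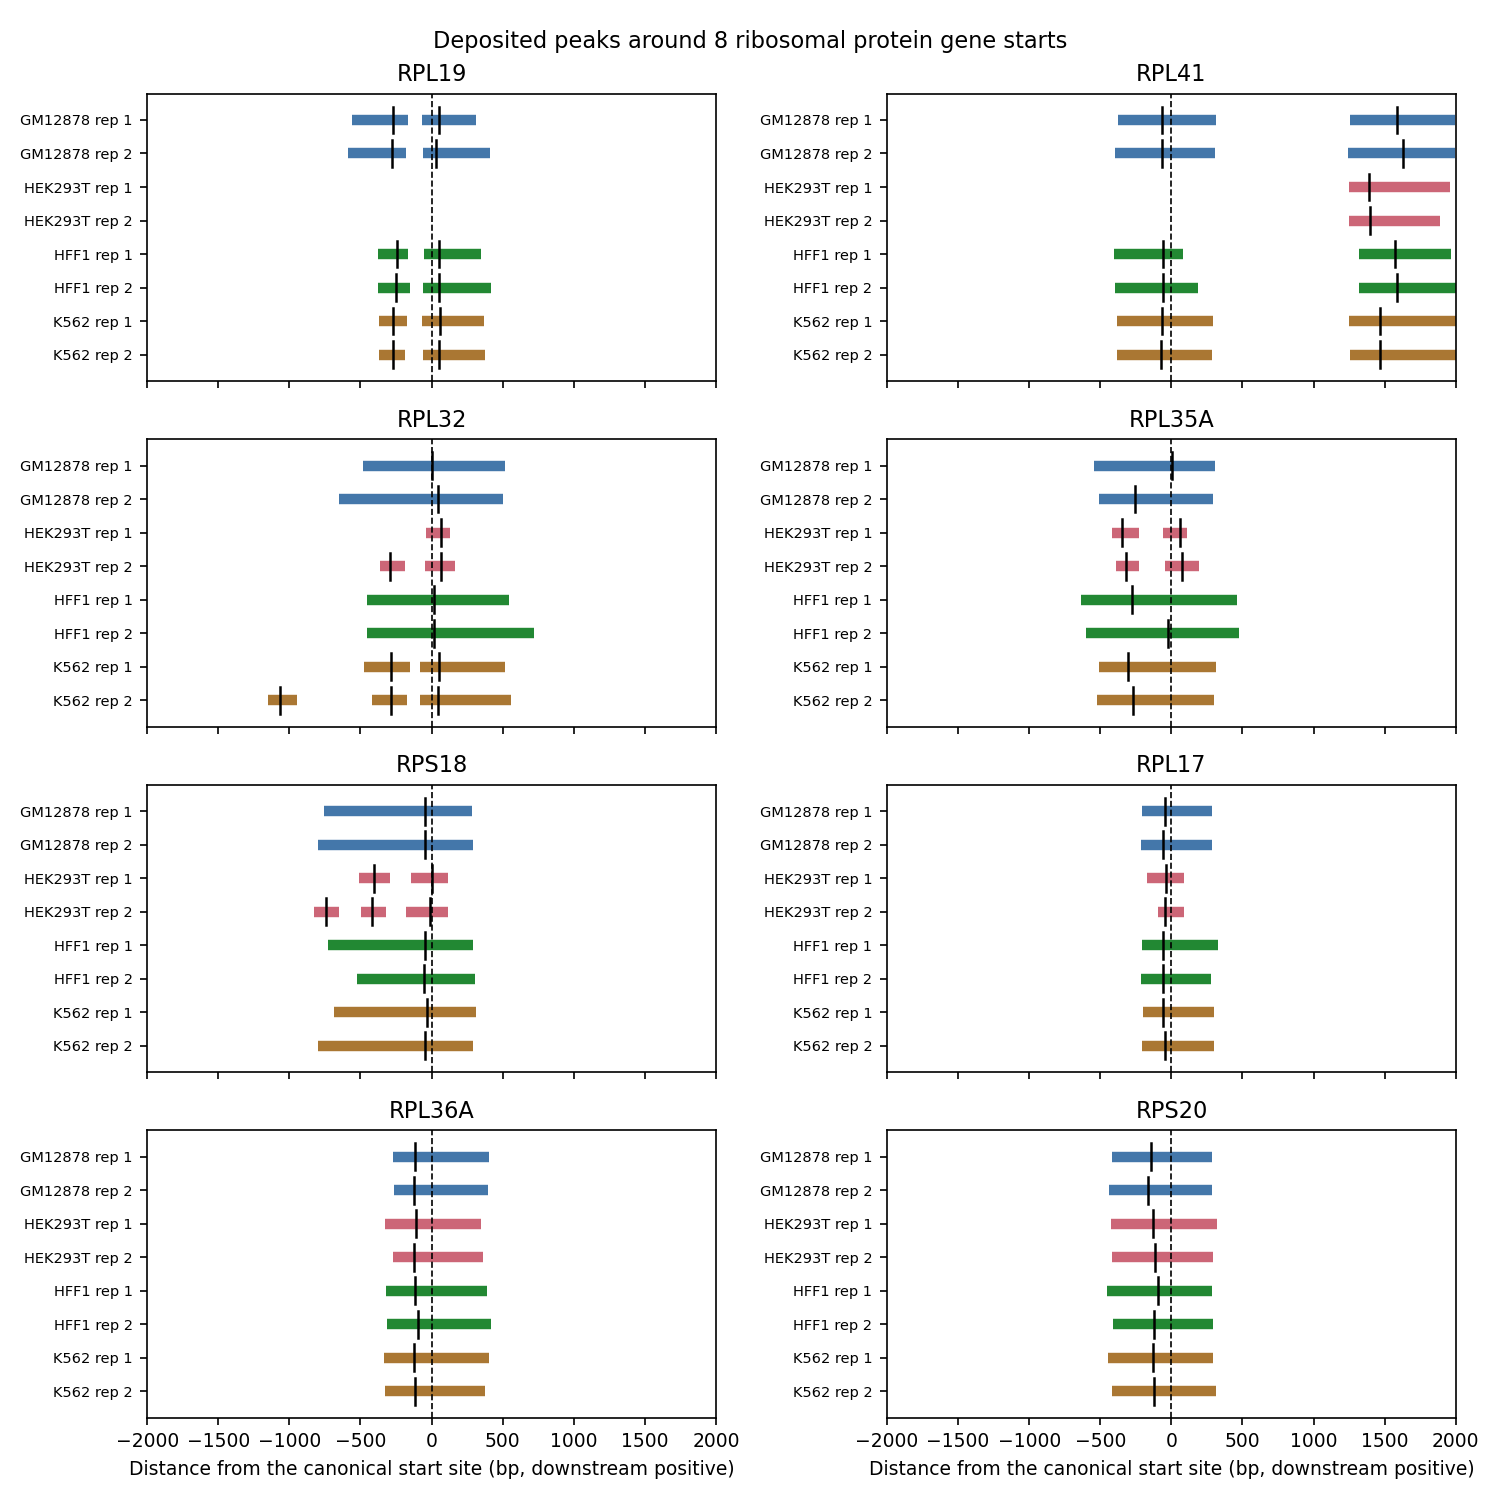
Deposited peaks within 2 kb of the canonical start of 8 ribosomal protein genes (x axis: distance in bp, downstream positive, dashed line at the start), 1 row per human library, with a black tick at each summit. RPL19 and RPL41 have no bar at the start in HEK293T, RPL35A and RPS18 have short separate bars there in place of 1 long bar, and RPL36A and RPS20 have bars of similar length in all 8 libraries.

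The promoter peaks of the members were single and of ordinary width. A single promoter peak was found for 77.9% to 85.3% of the members with a peak in a given human library, beside 51.3% to 65.7% of all genes with a peak in that library. Genes tested are the 11916 with a promoter peak in all 8 human libraries, and 75 of the 77 members are among them. Median widths of the strongest promoter peak were 838 and 833 bp in GM12878, 547 and 527 bp in HEK293T, 927 and 856 bp in HFF1, and 858 and 820 bp in K562. The medians over all genes tested were 840 and 832, 580 and 555, 917 and 869, and 875 and 851 bp. The members' medians thus lay close to those of all genes in each human library.

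The narrowest peaks by the mean of log2 width belonged to RPL29, RPL17, RPL14, RPS27 and RPS10, with geometric means over 8 libraries of 398, 409, 462, 525 and 553 bp. The widest belonged to RPL7, RPS29, RPL9, RPLP1 and RPL15, at 1409, 1095, 1068, 1039 and 992 bp. RPL7, RPL9 and RPL15 each face the start of another gene on the opposite strand: RDH10 969 bp, LIAS 134 bp and NKIRAS1 142 bp upstream. Such a divergent start within 1 kb was found for 13 members, and for 10.1% of all genes. In GM12878 the median width was 1076.5 bp in these 13 and 813.5 bp in the other 62 tested, beside 981 and 805.5 bp in all genes with and without one. In HEK293T the same medians were 547 and 534.75 bp in members and 635.5 and 555 bp in all genes.

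**Figure D3:**
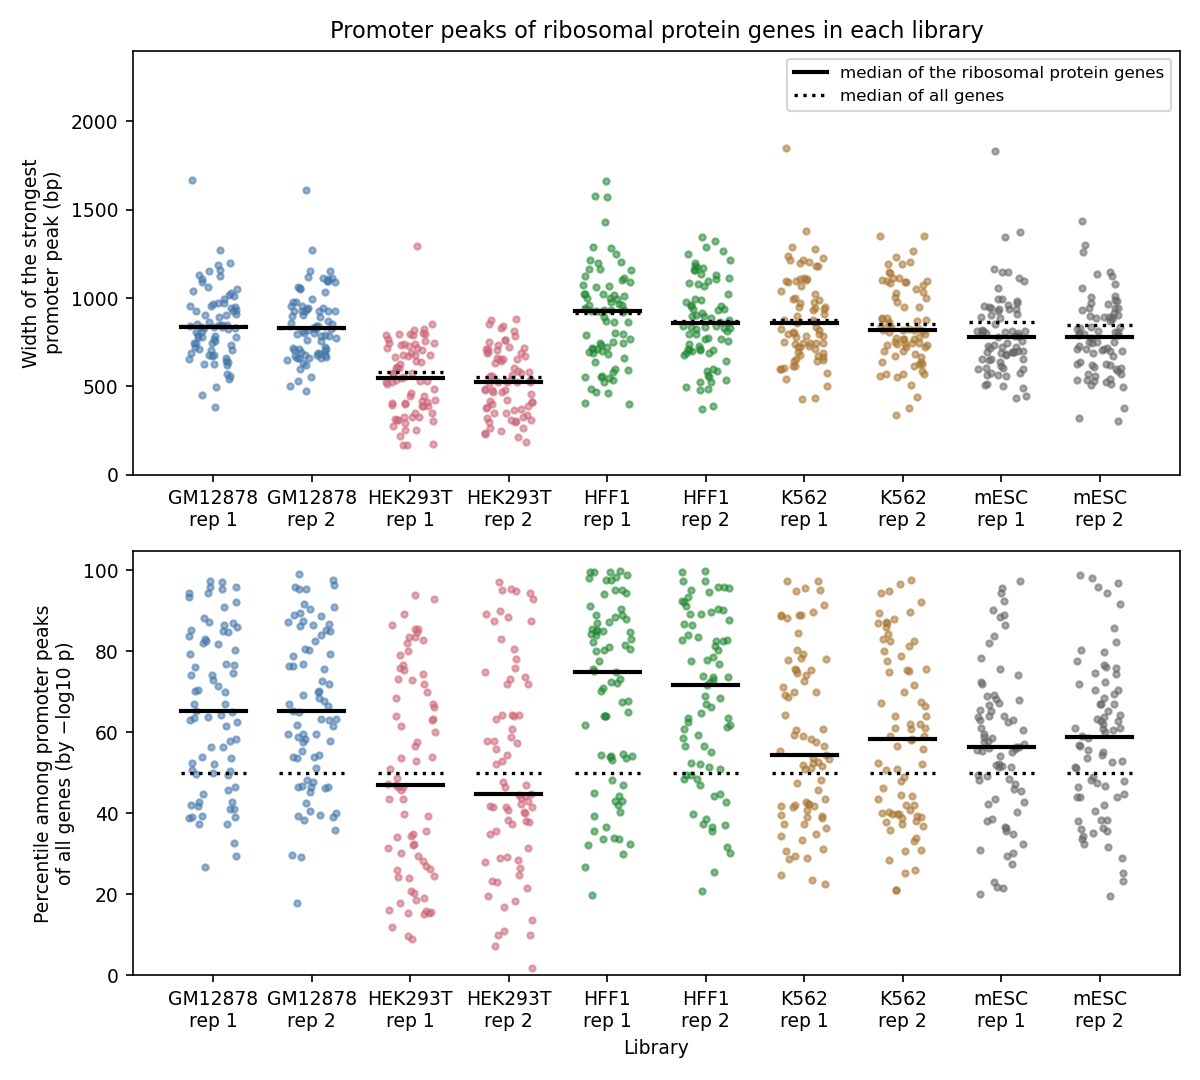
Width in bp (top) and percentile rank by −log10 p (bottom) of the strongest promoter peak of each ribosomal protein gene, 1 point per gene, in each of the 10 libraries. Solid lines are medians of the members and dotted lines medians of all genes (by definition the 50th percentile below); the HEK293T points are lowest in both panels, with median percentiles of 47.0 and 44.8.

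Summits lay just upstream of the start. The median distance of the members' summits from their nearest start was −43 and −38 bp in GM12878, −67 and −59 in HEK293T, −50 and −50 in HFF1, −47 and −43 in K562, and −19.5 and −17.5 in mESC. The medians of all genes were −43 to −40 bp in human and −30 in mouse. Summits fell upstream of the start in 78.7% to 92.0% of members across human libraries, beside 73.7% to 78.2% of all genes. In the human libraries the members' peaks reached further upstream than downstream. Median extents in GM12878 replicate 1 were 480 bp before and 315 bp after the canonical start. In HEK293T replicate 1 they were 326 and 122 bp. In mESC the order was reversed, at 361.5 and 408.5 bp in replicate 1 and 347 and 398 bp in replicate 2. Extents were not measured over all genes.

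A few members had their summit well away from the nearest annotated start. The farthest were RPL36, RPS19, RPLP2, RPL23A and RPL7, with medians of −425.5, −405.5, −368.5, −311 and −301 bp over the human libraries. At RPL36 the summit stayed between −449 and −394 bp of another annotated start in all 8 libraries, and the peak ended 9065 to 9260 bp before the canonical start. RPL36 values given here therefore describe that upstream region. The canonical RPL36 start had a weaker peak of 329 to 569 bp in 7 libraries, with summits at −90 to −7 bp, and none in HEK293T replicate 2. With canonical starts alone 74 of 77 members had a peak in all 8 libraries, beside 54.2% of all genes. The strongest peak also lay over 1 kb from the canonical start for RPL6 in 2 human libraries and for RPL27A in 1, and each of these had a peak at its canonical start in all 8. At RPS19, the gene most often mutated in Diamond-Blackfan anaemia, the summit lay between −553 and −401 bp in 5 libraries and between −115 and −96 bp in the other 3 (HFF1 replicate 2 and both of K562).

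Ranked within each library by −log10 p, the members' median lay above the middle of all promoter peaks except in HEK293T. Median percentiles were 65.3 and 65.3 in GM12878, 47.0 and 44.8 in HEK293T, 74.8 and 71.6 in HFF1, 54.5 and 58.3 in K562, and 56.5 and 58.9 in mESC. Ranking by fold instead lowered the mESC mean to 39.9 and that of K562 to 48.4, and put HEK293T at 51.2 (47.5 and 54.9 in its libraries), so only GM12878 and HFF1 stood above the middle by both measures in both libraries. RPL34, RPL37, RPL27A and RPL15 had the highest median percentiles over the human libraries, chosen after their values were seen: RPL34 stood at 93.0 or higher in all 8. RPL19, RPL10, RPL7A, RPL38 and RPL12 had the lowest, between 22.9 and 33.1. Small-subunit members had a median percentile of 68.5 and large-subunit members 55.2.

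Peak width differed between the 4 human lines, by limma's moderated F test on log2 width centred on each library's median, for 27 of 75 members, which is 36.0% beside 40.6% of all genes tested. The members were thus no more often variable in width than other genes. In HEK293T 12 members had wider and 19 narrower peaks than the mean of the other 3 lines, beside 21.6% and 14.7% of all genes, so narrowing was the more frequent direction in members (25.3%) and widening in all genes. The balance depends on the scaling: centring assumes that the typical promoter does not change, and without it the typical HEK293T width stood at −0.53 on the log2 scale, and 0 members were wider and 55 narrower, beside 2.37% and 59.6% of all genes.

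RPL32 had the smallest p of the members for width. Its strongest promoter peak was 997 and 1155 bp wide in GM12878, 176 and 213 bp in HEK293T, 1000 and 1176 bp in HFF1, and 598 and 639 bp in K562. HEK293T lay far below every other library, and K562 between. The centred log2 difference of HEK293T from the other lines was −1.60 ± 0.14 (SE, n = 2 libraries against 6, adjusted p = 0.00134 by limma), or 0.329 times. In K562 and in HEK293T replicate 2 a second peak stood upstream, with summits 285 to 293 bp before the canonical start, where GM12878 and HFF1 had 1 continuous peak.

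RPL35A, a Diamond-Blackfan anaemia gene of the large subunit, had widths of 852 and 800 bp in GM12878, 169 and 235 bp in HEK293T, 1102 and 1079 bp in HFF1, and 824 and 825 bp in K562. The HEK293T libraries each held 2 short peaks, 1 over the start and 1 with its summit 320 to 346 bp upstream, inside the span of the single peak of the other lines. The difference of the strongest peak was −1.58 ± 0.15 (adjusted p = 0.00146), and of the summed width of both peaks −0.59 (adjusted p = 0.00197).

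RPS18, whose product sits in the head of the small subunit, was similar, at 1038 and 1091 bp in GM12878, 220 and 297 bp in HEK293T, 1024 and 830 bp in HFF1, and 1001 and 1095 bp in K562. Its difference was −1.37 ± 0.15 (adjusted p = 0.00244) for the strongest peak, but −0.20 (adjusted p = 0.273) for the summed width, since HEK293T held 2 and 3 separate peaks across the same span. The strongest one in HEK293T replicate 1 was the peak 405 bp upstream and not the one over the start. VPS52 starts 199 bp upstream of RPS18 on the other strand.

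Other members kept their width in HEK293T while the typical promoter narrowed. RPS20, of the small-subunit head, measured 706 and 725 bp in GM12878, 747 and 717 bp in HEK293T, 743 and 703 bp in HFF1, and 743 and 733 bp in K562. In base pairs its libraries overlapped fully, and relative to each library's median HEK293T was wider by 0.62 ± 0.07 (adjusted p = 0.00283), which without centring was 0.01. RPS27 was also relatively wider, at 0.50 ± 0.07 (adjusted p = 0.00532), and without centring it turned to −0.11. RPS27 measured 480 to 556 bp over the 8 libraries.

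Widths in the other lines stood apart less often. In GM12878 3 members were wider and 0 narrower (6.92% and 6.95% of all genes), in HFF1 3 wider and 8 narrower (8.36% and 9.32%), and in K562 1 wider and 0 narrower (5.72% and 7.32%). At an unadjusted p under 0.05 in limma, 8 members were wider and 4 narrower in GM12878, and 8 wider and 5 narrower in K562. The share of all genes at that threshold was not computed. Without centring the counts of wider and narrower members were 12 and 0 in GM12878 (13.5% and 4.78% of all genes), 21 and 2 in HFF1 (25.4% and 4.06%) and 14 and 0 in K562 (15.7% and 4.36%). The wider members in GM12878 were RPL32, RPL23 and RPS18, at 0.94, 0.48 and 0.62, and all 3 lost the call without the HEK293T libraries, with 0.46, 0.26 and 0.18. None of the 3 calls held when either GM12878 library was left out (0.36 to 1.06), and those of RPL23 and RPS18 ended without any 1 library of HFF1 or K562 (0.45 to 0.66).

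In HFF1, RPL32, RPL35A and RPS2 were wider by 0.84, 0.82 and 0.52 (adjusted p = 0.0159, 0.0185 and 0.0255), and without the HEK293T libraries by 0.34 (adjusted p = 0.146), 0.33 (0.0389) and 0.34 (0.0295). RPS12 was narrower there, at 684 and 704 bp beside 927 and 925 bp in GM12878, 790 and 694 bp in HEK293T (overlapping HFF1), and 1291 and 1074 bp in K562 (−0.69 ± 0.10, adjusted p = 0.00885). RPL8 measured 462 and 371 bp in HFF1, 386 and 369 bp in HEK293T, and 681 to 943 bp in GM12878 and K562 (−0.87 ± 0.14, adjusted p = 0.0147), but its summed width differed by only −0.24 (adjusted p = 0.292), since HFF1 held 2 promoter peaks there. Leaving out 1 HFF1 library ended the call of RPL35A and RPS2 for either library, of RPL32 and RPL8 without replicate 2 (0.68 and −0.75) and of RPS12 without replicate 1 (−0.63). The RPS2 call also ended without any 1 library of GM12878 or K562 (0.52 to 0.53). In summed width RPL32 did not pass in HFF1 (0.37) or in GM12878 (0.54).

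RPL10A was the 1 member wider in K562, at 1240 and 1001 bp beside 924 to 975 bp in GM12878 and HFF1 and 391 and 347 bp in HEK293T (0.49 ± 0.10, adjusted p = 0.0297). It lost the call without the HEK293T libraries (0.24) without K562 replicate 1 (0.35), and without any 1 library of GM12878 or HFF1 (0.48 to 0.49).

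More members were called in HEK293T by summit height than by width, as were more of all genes. The summit pileup was recovered from the deposited fold and −log10 p of each peak, and its test was added after the files were seen. Median pileups of the members were 124 and 124 in GM12878, 33 and 31 in HEK293T, 94 and 84 in HFF1, and 98 and 94 in K562, beside 113 and 114, 36 and 35, 89 and 80, and 93 and 86 over all genes tested. In the other 3 lines the members' median was above that of all genes, and in HEK293T it was below. These raw heights follow depth. Thinned to the HEK293T background level, the members' medians were 33 and 35 in GM12878, 17 and 19 in HFF1, and 21 and 21 in K562. Over all genes tested they were then 30 and 30, 16 and 17, and 19 and 20. At a matched background the HEK293T medians were thus not the lowest. The F test called 60 of 75 members, beside 83.1% of all genes tested. In bulk chromatin, fewer cells with an open promoter and less opening per cell cannot be told apart.

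Relative to each library's median, 43 members had a lower and 20 a higher summit in HEK293T than the mean of the other lines. Among all genes tested 31.7% were lower and 42.6% higher. The median log2 difference was −0.29 in members and 0.09 in all genes. In each HEK293T library taken alone, 48 of 75 members lay below the mean of the other lines, beside 45.1% and 43.5% of all genes. In both libraries 46 members did, beside 38.6% of all genes. Under quantile normalization 38 were lower and 7 higher (29.2% and 28.5% of all genes), and with the other libraries thinned to the HEK293T background 28 were lower and 5 higher (17.8% and 23.4%). Without centring all 75 were lower and 0 higher (94.7% and 1.57% of all genes), as HEK293T then lay −1.33 below the other lines at the typical gene. Lower members thus outnumbered higher ones in the centred, quantile-normalized and thinned fits, while the number of higher members varied from 5 to 20. The count without centring does not set the members apart, since nearly all genes were lower there.

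**Figure D4:**
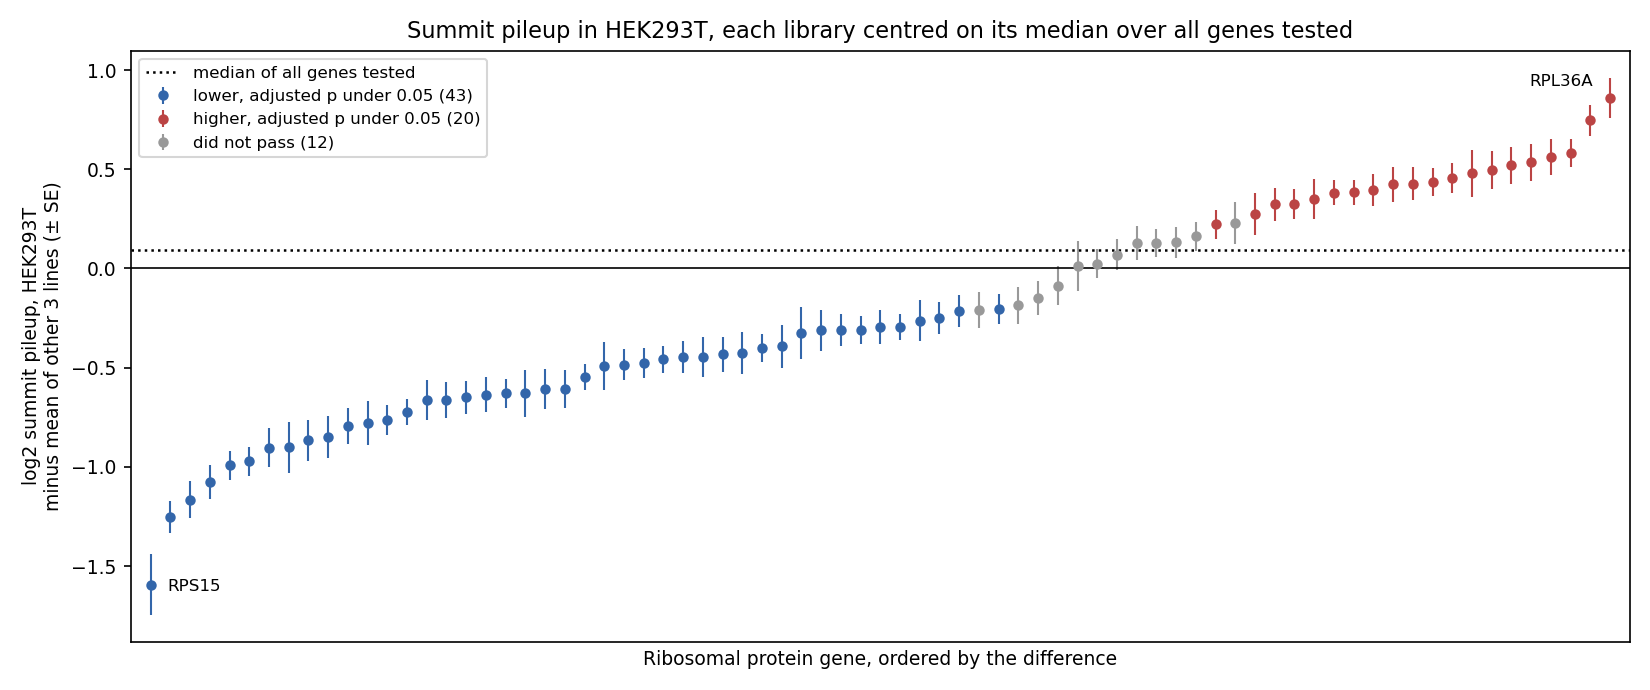
log2 summit pileup in HEK293T minus the mean of the other 3 human lines (y axis, ± SE) for the 75 ribosomal protein genes tested, ordered by value, each library centred on its median over all genes tested. 43 points are lower (blue), 20 higher (red) and 12 did not pass an adjusted p of 0.05 (grey), while without centring all 75 are lower; the range runs from −1.59 at RPS15 to 0.86 at RPL36A.

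RPL17, whose product lines the exit of the nascent peptide tunnel, had pileups of 111 and 111 in GM12878, 14 and 13 in HEK293T, 100 and 76 in HFF1, and 67 and 65 in K562. HEK293T was lowest without overlap. The centred difference was −1.25 ± 0.08 (adjusted p = 2.43e-06), or 0.419 times, and after thinning it was −1.36 (adjusted p = 0.000248). RPL32 gave 82 and 83, 14 and 15, 77 and 67, and 78 and 77 in the same order of lines, a difference of −0.99 ± 0.07 (adjusted p = 4.18e-06).

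RPS16, a small-subunit protein that contacts the P-site tRNA, gave 129 and 143 in GM12878, 20 and 21 in HEK293T, 103 and 96 in HFF1, and 93 and 91 in K562. Its difference was −0.97 ± 0.07 (adjusted p = 5.44e-06), and its width did not pass (0.03 ± 0.08, adjusted p = 0.754). RPS15 showed the most negative value of any member, chosen after it was seen, with 129 and 125, 15 and 9, 90 and 88, and 73 and 73 (−1.59 ± 0.15, adjusted p = 1.95e-05). After RPL17, RPL35A and RPL3 followed, at −1.16 ± 0.09 and −1.08 ± 0.09 (adjusted p = 7.17e-06 and 6.8e-06). RPL3 is a core protein near the peptidyl transferase centre.

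At the other end stood RPL36A and RPS3A. RPL36A pileups were 93 and 102 in GM12878, 58 and 50 in HEK293T, 54 and 61 in HFF1, and 98 and 82 in K562. In raw reads HEK293T overlapped HFF1, although the typical HEK293T promoter was much lower. The centred difference was 0.86 ± 0.10 (adjusted p = 7.11e-05), and 0.69 under quantile normalization (adjusted p = 0.00152). RPS3A gave 0.58 ± 0.07 (adjusted p = 8.8e-05), but under quantile normalization 0.17 (adjusted p = 0.0866). Without centring both turned negative, at −0.56 and −0.84.

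The spread among members was also wider in HEK293T. The interquartile range of log2 pileup over the 75 members was 0.30 and 0.33 in GM12878, 1.03 and 0.83 in HEK293T, 0.26 and 0.25 in HFF1, and 0.34 and 0.42 in K562. Over all genes it was 1.09 and 1.15 in HEK293T and 0.45 to 0.68 elsewhere. In the 3 deeper lines the members were therefore more alike in summit height than genes at large. Thinned to the HEK293T background, the members' range rose to between 0.43 and 0.55 in those lines, beside 0.58 to 0.79 over all genes, and in HFF1 replicate 1 it was 0.55 beside 0.58. HEK293T then stood at 1.00 and 0.80, beside 1.06 and 1.12 over all genes.

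The members were also divided by what their promoters hold, for the HEK293T pileup. Of 45 tested members with the pyrimidine start, 26 were lower and 10 higher (median −0.33), and of 15 without it 9 were lower and 4 higher (median −0.22). Of 20 with an ETS match 13 were lower and 5 higher (median −0.49), and of 40 without 22 and 9 (median −0.26). Of 34 with the GC-box 19 were lower and 11 higher (median −0.26), and of 26 without 16 and 3 (median −0.32). Of 18 with the NFY box 9 were lower and 4 higher (median −0.20), and of 42 without 26 and 10 (median −0.43). Of the 28 members with a snoRNA gene inside them, against 1.28% of all genes, 17 were lower and 8 higher, and of the 47 tested without one 26 and 12. RPL4 hosts 5 snoRNA genes. Large-subunit members counted 28 lower and 10 higher of 44, and small-subunit members 15 and 10 of 31. Over all genes tested 31.7% were lower and 42.6% higher. These splits were not tested.

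Of the 4 X-linked members, 3 (RPS4X, RPL36A and RPL39) were lower in HFF1 and higher in HEK293T, while RPL10 was not. RPS4X, which has a homologue on chromosome Y, gave pileups of 124 and 111 in GM12878, 44 and 37 in HEK293T, 53 and 46 in HFF1, and 69 and 74 in K562. HFF1 was lower by −0.74 ± 0.09 (adjusted p = 0.000396), and by −0.65 without the HEK293T libraries (adjusted p = 0.000583). RPL36A and RPL39, a small protein of the exit tunnel, were lower in HFF1 by −0.68 ± 0.10 and −0.58 ± 0.09 (adjusted p = 0.000892 and 0.00111), though after thinning the values were −0.27 (adjusted p = 0.370) and −0.44 (adjusted p = 0.109). RPL10, the fourth, gave −0.12 ± 0.10 in HFF1 (adjusted p = 0.360), and in HEK293T it was lower by −0.61 ± 0.10 (adjusted p = 0.000573).

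Of 363 genes tested on X, 63.9% were lower in HFF1 and 73.3% higher in HEK293T, and RPL10 went against the majority of the chromosome in HEK293T. Among the 71 autosomal members 42 were lower and 17 higher in HEK293T, beside 32.5% and 41.6% of all autosomal genes tested. Without centring the X-linked members were lower there too. The split by chromosome was made after the values were seen, and the part of X in the single-gene results was not tested.

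Calls in the other lines were fewer. In GM12878 27 members were higher and 9 lower (19.7% and 28.0% of all genes), in HFF1 20 and 13 (24.3% and 26.4%), and in K562 11 and 4 (19.9% and 21.3%). These comparisons share HEK293T in their reference, so a low HEK293T value raises each of them. Without the HEK293T libraries, where all 77 members were tested, those called higher and lower were 10 and 7 in GM12878 (16.4% and 20.5% of all genes), 5 and 13 in HFF1 (22.4% and 20.4%), and 16 and 12 in K562 (30.2% and 23.8%). After thinning 4 were higher and 0 lower in GM12878 (2.86% and 8.85% of all genes) and 4 and 1 in HFF1 (7.97% and 3.86%). In K562 0 were called by limma (3.22% and 6.45%). At an unadjusted p under 0.05 in limma 3 were higher and 2 lower, without a share of all genes at that threshold. Without centring 75 were higher and 0 lower in GM12878 (89.8% and 4.55% of all genes), 37 and 3 in HFF1 (45.1% and 6.59%), and 66 and 0 in K562 (64.2% and 6.78%).

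**Figure D5:**
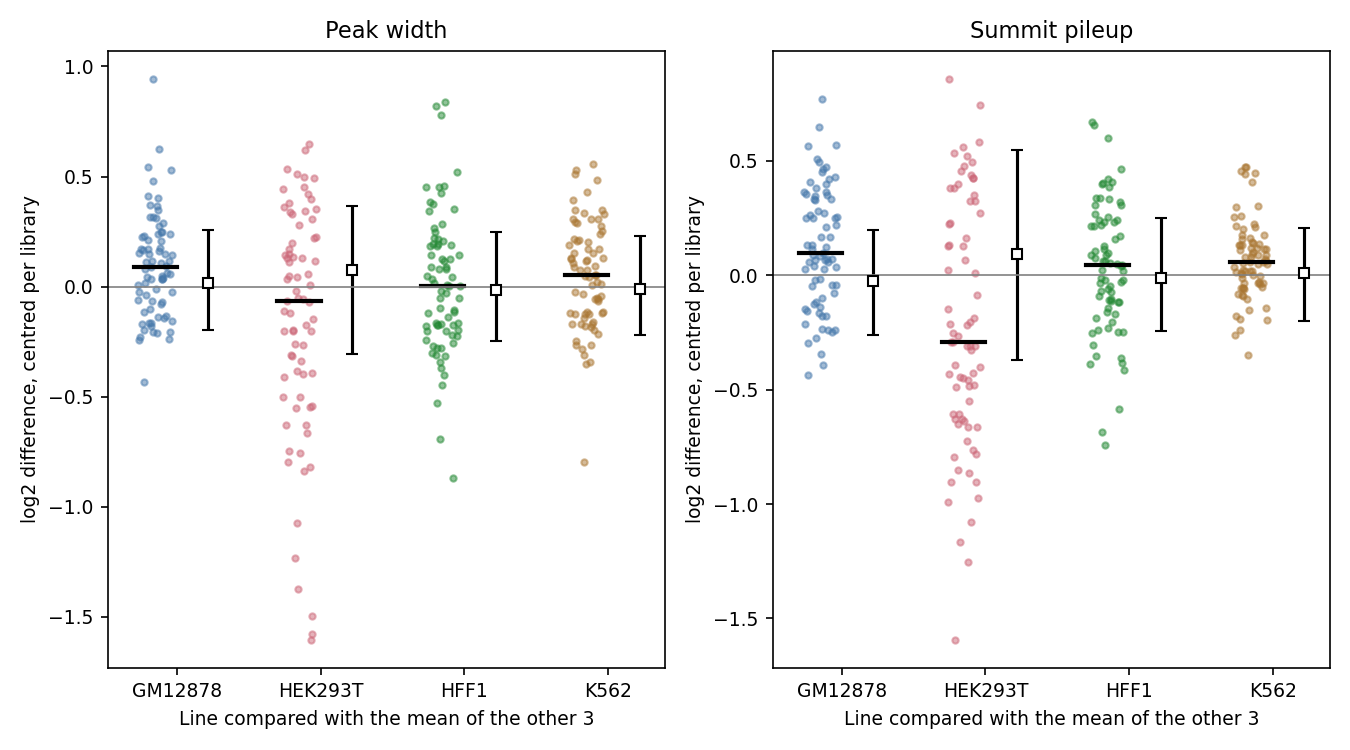
log2 difference of each human line from the mean of the other 3 (y axis) in peak width (left) and summit pileup (right), centred per library, 1 point per ribosomal protein gene with the members' median as a black line. White squares with bars are the median and quartiles of all genes tested; the HEK293T members have their pileup median at −0.29, below the square at 0.09; without centring all HEK293T pileup points fall below 0.

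RPL3 was higher in GM12878, at 121 and 138 beside 85 and 90 in HFF1 and 74 and 69 in K562 (0.65 ± 0.09, adjusted p = 0.000427), and still by 0.32 without the HEK293T libraries (adjusted p = 0.0215). RPL26, whose product also binds p53 mRNA, gave 136 and 137 beside 88 and 86 and 77 and 69 (0.51 ± 0.08, adjusted p = 0.00101), and 0.39 without HEK293T (adjusted p = 0.00212). RPL17 was higher by 0.56, but by 0.16 (adjusted p = 0.163) without HEK293T. RPS27A, made as a fusion of ubiquitin and a small-subunit protein, was lower, at 103 and 91 beside 90 and 78 in HFF1 and 118 and 101 in K562 (−0.44 ± 0.08, adjusted p = 0.002).

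RPS12 and RPS3A were lower in GM12878 by −0.35 and −0.30 (adjusted p = 0.00688 and 0.00975). Without GM12878 replicate 1 they did not pass, at −0.25 and −0.31, nor did RPS3A without replicate 2 (−0.28) or without the HEK293T libraries (−0.12). Without centring RPS27A, RPS12 and RPS3A were 0.38, 0.47 and 0.52, since GM12878 had the highest pileups throughout.

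In HFF1 the higher members named by rule were RPL17, RPL35A and RPL32, at 0.67, 0.60 and 0.42 (adjusted p = 0.000339, 0.00105 and 0.00159). Without the HEK293T libraries they were 0.27, 0.22 and 0.08, and RPL32 no longer passed (adjusted p = 0.326). RPL32 and RPL35A were higher in K562 by 0.46 and 0.47, and by 0.16 and 0.12 (neither passing) without HEK293T. RPL35A also did not pass without K562 replicate 1 (0.41).

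RPL38, RPL24 and RPL26 were lower in K562, by −0.35, −0.26 and −0.24 (adjusted p = 0.0311, 0.0192 and 0.0392). RPL38 gave 56 and 54 beside 91 and 109 in GM12878 and 80 and 74 in HFF1. RPL26 had its K562 summits at −398 and −383 bp, while those of GM12878 stood at −13 and −11. All 3 calls ended without either K562 library (−0.38 to −0.20) and without the GM12878 libraries (−0.26 to −0.07). RPL38 also did not pass without GM12878 replicate 2 or either HFF1 library, nor RPL26 without either GM12878 library or HFF1 replicate 2 (−0.36 to −0.22). Without centring they were 0.10 for RPL24, 0.0077 for RPL38 and 0.12 for RPL26.

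The genes fixed for their role behaved differently from each other in HEK293T. Of the Diamond-Blackfan anaemia genes, RPL35A and RPL11 were lower (−1.16 and −0.66 ± 0.09, adjusted p = 0.000167 for RPL11), and RPL5 and RPS26 were higher (0.45 ± 0.08 and 0.40 ± 0.08, adjusted p = 0.000512 and 0.00168), which without centring turned lower. RPL5 and RPL11 bind MDM2 together with 5S rRNA. RPL11 pileups were 120 and 125 in GM12878, 27 and 24 in HEK293T, 113 and 82 in HFF1, and 110 and 102 in K562, and those of RPL5 were 115 and 113, 48 and 53, 90 and 82, and 98 and 97. RPS19 and RPS24 did not pass (−0.19 ± 0.09 and −0.09 ± 0.10, adjusted p = 0.102 and 0.434).

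Among genes used as references in expression work, RPL13A was lower in HEK293T by −0.90 ± 0.10 (adjusted p = 3.7e-05), RPS18 by −0.85 ± 0.11 (adjusted p = 9.3e-05) and RPLP0 by −0.31 ± 0.07 (adjusted p = 0.00351). RPL13A is a component of the interferon-gamma-activated inhibitor of translation, and RPLP0 forms the base of the ribosomal stalk. RPLP0 pileups were 158 and 152 in GM12878, 36 and 38 in HEK293T, 106 and 90 in HFF1, and 124 and 119 in K562. RPSA, a head protein also known as the laminin receptor, was higher (0.32 ± 0.08, adjusted p = 0.00623), and lower without centring. RPS6, the substrate of S6 kinases, and RPL22, known for its role in lymphocyte development, did not pass (0.13 ± 0.08 and 0.02 ± 0.07).

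Genes of the same machinery, from lists chosen for their function, were set beside the members. FAU and RACK1, ribosomal proteins with other symbols, had peaks in all 8 libraries and did not pass in HEK293T pileup. That list held 3 genes, and the remaining gene is not reported here, so nothing is said of the list as a whole. Of 8 paralogues left out by name 6 had peaks in all 8 libraries, and RPL3L and RPL10L had none in any.

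Of all genes, 59.7% had a peak in all 8 libraries, and of those tested 31.7% were lower and 42.6% higher in HEK293T pileup. These are the shares to set beside each list here. Mitochondrial ribosomal protein genes had peaks in all 8 libraries for 76 of 78. In HEK293T 35 of the 76 tested were lower and 21 higher (median −0.14). Assembly factors had 24 of 24, with 9 lower and 7 higher (median 0.09), and RNA polymerase I genes 13 of 14, with 6 lower and 3 higher of 13 (median −0.12). Elongation and related factors, whose mRNAs often also begin with a TOP motif, had 12 of 13, the exception being EEF2. EEF2 lacked the peak in HEK293T alone, as did RPL19, RPL41, the RNA polymerase I exception POLR1G, and 2.08% of all genes. Of the 12 elongation and related genes tested, 8 were higher and 3 lower in HEK293T (median 0.31), with EEF1A1 at 0.99 ± 0.07 (adjusted p = 5.04e-06) and EEF1D at −0.93 ± 0.08 (adjusted p = 9.81e-06). In raw reads EEF1A1 had 98 and 93 in HEK293T and 89 to 168 elsewhere. The difference between these lists and the members was not tested.

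In mESC the orthologous promoters were described without a test against human. Median widths of the strongest peak were 781.5 and 780 bp, beside 863 and 846 bp over all mouse genes with a peak in both libraries. Median pileups were 98 and 97.5, beside 82 and 80. Summits lay within 100 bp of a start in 82.9% and 86.8% of members, beside 58.3% and 57.8% of all genes, and in human GM12878 in 72.0% and 74.7%, beside 63.5% and 63.8%. Mouse genes at the 2 human exceptions had peaks: Rpl19 with widths of 692 and 378 bp and Rpl41 with 436 and 869 bp, though the strongest Rpl41 peak of replicate 2 had its summit 1406 bp downstream of a start. At Rpl36 the mESC peaks spanned the canonical start, with summits at 8 and 12 bp, and are not comparable with the human peaks at another start given above. In mESC the strongest peak lay over 1 kb from the start taken as canonical for Rpl17, Rps10 and Rps14 in both libraries and for Rpl41 and Rps24 in 1.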

How the data were processed

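Bulk ATAC-seq peak lists of 5 lines, 2 libraries each, were used as the authors deposited them. Per the submitters' processing notes, cutadapt 3.2, Bowtie2 2.4.2, Picard and MACS2 2.2.7.1 were used with hg38 and mm10; their settings are not given in the sources used here. Each deposited peak carries a score, a fold over background (a ratio), and −log10 p and −log10 q as the authors' peak caller wrote them, and these values were used only within a list. The smallest −log10 q was 2.00, and 1 list was deposited per library.

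Members and lists were chosen with earlier results of these data known. Start sites came from GENCODE release 44 in human and from GENCODE mouse release M21 in mouse. The strongest promoter peak had the highest −log10 p. Widths were compared with limma 3.58.1 (R 4.3.3) on log2 width centred per library over 11916 genes, with Benjamini-Hochberg adjustment at 0.05 over all of them. Summit pileup was solved from fold and −log10 p, to a relative tolerance of 0.0001, for 100% of peaks, and was tested in the same way; that test, thinning, and leaving out a line were added after the data were seen. Named genes were those without a peak, the 5 widest and 5 narrowest, the 10 smallest p of the F test, up to 3 per line and direction, the 5 farthest summits, and 15 fixed for their role; some of these are not reported here. In simulated widths the K562 comparison recovered 128 of 200 genes changed by 1 on the log2 scale and 0 of 200 changed by 0.5. Other steps used Python 3.11.15. Peak lists give no read totals, and the number of libraries limits the precision.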

Additional observations from a re-analysis of the deposited data

How the results depend on the processing

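Replicate numbers did not pair the libraries (correlations of deviations from −0.02 to 0.04). With the replicate number as a block, 20 members differed in width and 58 in pileup between lines, 1 in GM12878 width, and 63 in HEK293T pileup. These counts, and the ranges below with 1 library left out, are given without the share of all genes. They therefore do not set the members apart from other genes.

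Counts of members called moved by over 1.5 times as follows. Calls over all genes also moved without centring and after thinning, so such moves are not particular to the members. In HEK293T width, 59.6% of all genes were narrower without centring and 14.7% with it. In HEK293T pileup, 17.8% were lower and 23.4% higher after thinning, from 31.7% and 42.6%. The counts below are given without the share of all genes. Without centring, width calls were 51 over all lines, 12 in GM12878, 55 in HEK293T, 23 in HFF1 and 14 in K562, and pileup calls 75 in GM12878 and 66 in K562. Summed width gave 5 in GM12878, 20 in HFF1 and 7 in K562. For K562 width, quantile normalization gave 2, and peaks with −log10 q of at least 10 gave 3. Thinning gave pileup calls of 22 over all lines, 4 in GM12878, 33 in HEK293T, 5 in HFF1 and 0 in K562, where limma had 3 higher and 2 lower at an unadjusted p under 0.05. Without the HEK293T libraries, width calls were 11 over all lines and 6 in K562, and pileup calls 33 over all lines, 17 in GM12878, 18 in HFF1 and 28 in K562. Without the GM12878 libraries K562 width had 3.

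Leaving out 1 library kept the presence counts at 75 and 76. Width calls ranged from 16 to 27 over all lines, 0 to 8 in GM12878, 26 to 32 in HEK293T, 1 to 16 in HFF1 and 0 to 10 in K562. Pileup calls ranged from 51 to 62, 12 to 41, 57 to 60, 15 to 42 and 4 to 21 in the same order.

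Without centring, the sign turned for RPS27 width in HEK293T (−0.11). The same held for pileup of RPS27A, RPS12 and RPS3A in GM12878 (0.38, 0.47 and 0.52), RPL36A and RPS3A in HEK293T (−0.56 and −0.84), and RPL24, RPL38 and RPL26 in K562 (0.10, 0.0077 and 0.12). The cause was not tested.

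Mean summit distances over a line's libraries, by canonical start and by nearest peak, were −59.5 and −35.5 bp in GM12878, −95.75 and −49 in HEK293T, −84 and −46 in HFF1, −64.5 and −34.5 in K562, and 1 and −17 in mESC. With −log10 q of at least 10 they were −70 in HEK293T and −52.75 in HFF1, and the HEK293T median width was 555.5 bp. Ranking by fold gave 57.8, 51.2, 70.0, 48.4 and 39.9 in GM12878, HEK293T, HFF1, K562 and mESC. In the 100 bases before the start, ETS was in 19.4%, YY1 in 0% and SP/KLF in 37.1% of members, beside 8.49%, 0.504% and 45.7% of all promoters.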
